A study of Mus musculus with 12 samples.

Results

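Gem, Trnp1, Myl10 and Ckb are 4 of the 27998 genes in the count tables, chosen because each stood far higher in 1 library of c-Kit+ bone marrow cells than in the 11 others. Gem and Trnp1 were highest in the library labelled G12D/E2-KO T3, Myl10 in E2-KO T3 and Ckb in G12D/E2-KO T1. Gem encodes a small GTP-binding protein of the RGK family (Rad, Gem and Kir), which binds the beta subunit of voltage-gated calcium channels. Trnp1 encodes a nuclear protein known from neural progenitors of the developing cortex, where it is linked to proliferation and to BAF chromatin remodelling complexes. Myl10 encodes a regulatory light chain of myosin, related to the muscle light chains and known from precursor lymphocytes. Ckb encodes brain-type creatine kinase, which passes phosphate between ATP and creatine and is expressed in many tissues with a high energy turnover.

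The study asked how an activated NRas allele and loss of Ezh2, a histone methyltransferase of the Polycomb system, act alone and together while leukemia develops. WT mice were negative for Mx1-Cre, E2-KO mice were Mx1-Cre positive with 2 floxed Ezh2 alleles, G12D mice were Mx1-Cre positive with 1 inducible NRasG12D knock-in allele, and G12D/E2-KO mice carried all of these. All were on a C57BL/6 background and received pIpC, which switches on Mx1-Cre, so the recombinase is absent from WT and active in blood cells as well as in other interferon-responsive cells of the mutants. Each of the 4 genotypes was sampled at T1 (2 weeks), T2 (2 months) and T3 (4 months) after pIpC with 1 library each, at a labelled age of 8 to 12 weeks at injection (the study's methods mention a younger age), and the number of mice per library is not given in the sources used here.

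Cells were counted with unique molecular identifiers (UMIs), each of which marks 1 captured RNA molecule, and levels are in CPM, where the UMIs of a gene are divided by all UMIs of the same cells and multiplied by 1000000. The 12 libraries held 12636998 to 23646292 UMIs in 2350 to 3767 cells. Of the G12D/E2-KO T1 cells, 95.1% had a match in the G12D T1 table, among cells that made up 51.3% of that table. A match was a cosine similarity above 0.9, and 1494 of the matched pairs had identical counts in every gene. The 2896 matched cells were counted only in G12D/E2-KO T1, because they make up nearly all of that table, and the Ckb peak rests on this choice. As a check that did not enter the choice, Ezh2 stood at 20.9 CPM in the shared cells and at 86.3 CPM in the rest of the G12D T1 table. For G12D T1 as deposited, Gem would stand at 4.85 CPM in place of 5.88, below G12D T3, Trnp1 at 4 UMIs in place of 0, Myl10 at 3.23 in place of 3.19 CPM, and Ckb is given with its results. Cells carry running numbers in the tables, so barcodes could not be compared, and no other pair of libraries had a matching cell. The Ezh2 level lay between 81.7 and 133 CPM in libraries without the deletion (WT and G12D), between 27.7 and 34.6 CPM in E2-KO, and between 20.7 and 25.3 CPM in the double mutant. Kit, the gene of the protein used for enrichment, had a UMI in 20.2% to 30.4% of the cells of each library. Xist, expressed from the inactive X chromosome of females, ranged from 1296 to 1357 CPM in the T3 libraries of WT, E2-KO and G12D and did not exceed 0.608 CPM in any other library, so that time point T3 and female cells coincide in those 3 genotypes.

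The start regions of Trnp1, Ckb and Myl10 are shown so that their base composition can be compared with that of other genes. Each sequence is the 250 bases before the annotated start, 5′ to 3′ on the strand of the gene, from RefSeq on GRCm38.p6. Capitals mark matches on either strand to the TATA-box word TATAAA, the core promoter word CCAAT, the GATA factor word GATAAG or the ETS factor word CCGGAA, which are common core promoter and blood factor motifs. The Gem start region was not analysed here.

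Trnp1 (chr4:133498551-133498800, minus strand): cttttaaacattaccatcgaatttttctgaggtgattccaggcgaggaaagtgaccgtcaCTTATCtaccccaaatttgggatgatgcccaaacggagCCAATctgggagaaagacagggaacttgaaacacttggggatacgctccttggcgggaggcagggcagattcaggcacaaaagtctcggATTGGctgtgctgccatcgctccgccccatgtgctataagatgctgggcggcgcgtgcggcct
Ckb (chr12:111672339-111672588, minus strand): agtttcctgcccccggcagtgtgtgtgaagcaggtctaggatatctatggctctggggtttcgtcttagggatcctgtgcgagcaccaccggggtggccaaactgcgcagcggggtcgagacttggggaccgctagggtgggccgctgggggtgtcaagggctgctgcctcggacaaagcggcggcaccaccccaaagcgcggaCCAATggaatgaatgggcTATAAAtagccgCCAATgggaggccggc
Myl10 (chr5:136692896-136693145, plus strand): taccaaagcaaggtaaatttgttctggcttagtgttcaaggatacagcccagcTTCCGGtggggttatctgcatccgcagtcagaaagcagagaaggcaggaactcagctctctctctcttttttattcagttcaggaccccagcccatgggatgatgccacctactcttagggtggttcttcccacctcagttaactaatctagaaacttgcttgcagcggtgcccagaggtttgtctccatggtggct

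Over 32851 start regions of the same length the median was 6 CpG dinucleotides. The Trnp1 region held 13, and 68.5% of all regions held fewer. The Ckb region held 16 (74.6% held fewer) and the Myl10 region 3 (29.0% held fewer), so none of them lay at an extreme. Trnp1 had 2 matches to CCAAT, which 33.9% of all regions contain, and 1 to GATAAG, which 6.55% contain. Ckb had 1 match to TATAAA, found in 12.4% of all regions, and 2 to CCAAT. Myl10 had 1 match to CCGGAA, found in 12.0% of all regions. A match is only a description of the letters, and binding was not measured.

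Gem (ENSMUSG00000028214, mm10 chromosome 4, 11704457 to 11714752, plus strand) was most abundant in the double mutant at T3. In the order T1, T2, T3, the WT libraries held 1.19, 0.930 and 1.38 CPM and the E2-KO libraries 1.84, 1.85 and 1.5 CPM. The G12D libraries held 5.88, 1.14 and 4.99 CPM and the double mutant libraries 3.82, 7.38 and 39.8 CPM. The G12D/E2-KO T3 library was thus 5.40 times the next one, G12D/E2-KO T2, with an exact 95% interval of 4.48 to 6.55 that covers counting error only. It held 615 Gem UMIs in 262 of 2617 cells, which is 10.0% of its cells, and 116 of these cells had a single Gem UMI. Among the rest of the order, G12D T1 and G12D/E2-KO T2 had overlapping intervals, as did the WT and E2-KO libraries and G12D T2 near the bottom. The mean over the time points was 1.17 ± 0.227 CPM for WT libraries, 1.73 ± 0.199 for E2-KO, 4.00 ± 2.52 for G12D and 17.0 ± 19.8 for the double mutant (SD, n = 3), so in the double mutant the SD exceeded the mean. No p-value is given for the levels of the 4 genes, because they were chosen on these values.

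Trnp1 (ENSMUSG00000056596, chromosome 4, 133491100 to 133498550, minus strand) was nearly absent from every library but the same one. The G12D/E2-KO T3 library held 1035 Trnp1 UMIs, or 67.1 CPM, in 411 cells (15.7%), with up to 21 UMIs in a cell. All other libraries together held 10 UMIs. Each WT library had 0 UMIs, the E2-KO libraries had 1, 3 and 0 in the order T1, T2, T3, the G12D libraries 0, 0 and 1, and the earlier double mutant libraries 4 (T1) and 1 (T2). The T3 library held 99.0% of all Trnp1 UMIs of the study. Against WT, whose libraries were all at 0, its level was at least 1341-fold higher, computed from a floor of 3 UMIs over all UMIs of that group (0.05 CPM). The ratio to the next library was 373 (exact 95% interval 145 to 1373), which rests on the 4 UMIs of G12D/E2-KO T1, 3 of them in 1 cell. Without the cell with the most Trnp1 UMIs in each library it was 709.5. The other 11 libraries could not be put in order at these counts.

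Myl10 (ENSMUSG00000005474, chromosome 5, 136693146 to 136701094, plus strand) was measurable in all libraries and peaked in E2-KO at T3. In the order T1, T2, T3, WT libraries held 8.08, 4.53 and 11.7 CPM and E2-KO libraries 9.95, 12.9 and 73.8 CPM. G12D libraries held 3.19, 6.60 and 12.5 CPM and double mutant libraries 3.28, 3.56 and 1.04 CPM. The E2-KO T3 library held 932 UMIs in 331 of 2586 cells (12.8%). It was 5.72 times the next library, E2-KO T2, with an exact 95% interval of 5.0 to 6.57. The next 3 libraries, E2-KO T2, G12D T3 and WT T3, had overlapping intervals between 10.3 and 14.5 CPM. G12D/E2-KO T3, with 16 UMIs, was the lowest. Without the E2-KO T3 library the levels spanned 1.04 to 12.9 CPM (mean 7.03 ± 4.24, SD, n = 11).

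Ckb (ENSMUSG00000001270, chromosome 12, 111669361 to 111672338, minus strand) was highest in the double mutant at T1. By time point from T1 to T3, WT libraries held 2.44, 1.48 and 0.871 CPM and E2-KO libraries 1.74, 2.09 and 1.35 CPM. G12D libraries held 3.14, 1.42 and 2.26 CPM, and double mutant libraries 35.4, 5.12 and 2.33 CPM. The G12D/E2-KO T1 library held 788 UMIs in 229 of 3044 cells (7.52%), and 1 of these cells had 31 UMIs. The ratio to the next library, G12D/E2-KO T2, was 6.91 (exact 95% interval 5.58 to 8.65). The ratio fell to 1.76 with the tables as deposited, where the next library became G12D T1 at 20.1 CPM. In that table the 2896 cells matched to G12D/E2-KO T1 carried 772 Ckb UMIs, at 35.6 CPM, and its remaining 2752 cells carried 62, at 3.14 CPM. The other 3 genes kept their ratios with the tables as deposited.

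**Figure D1:**
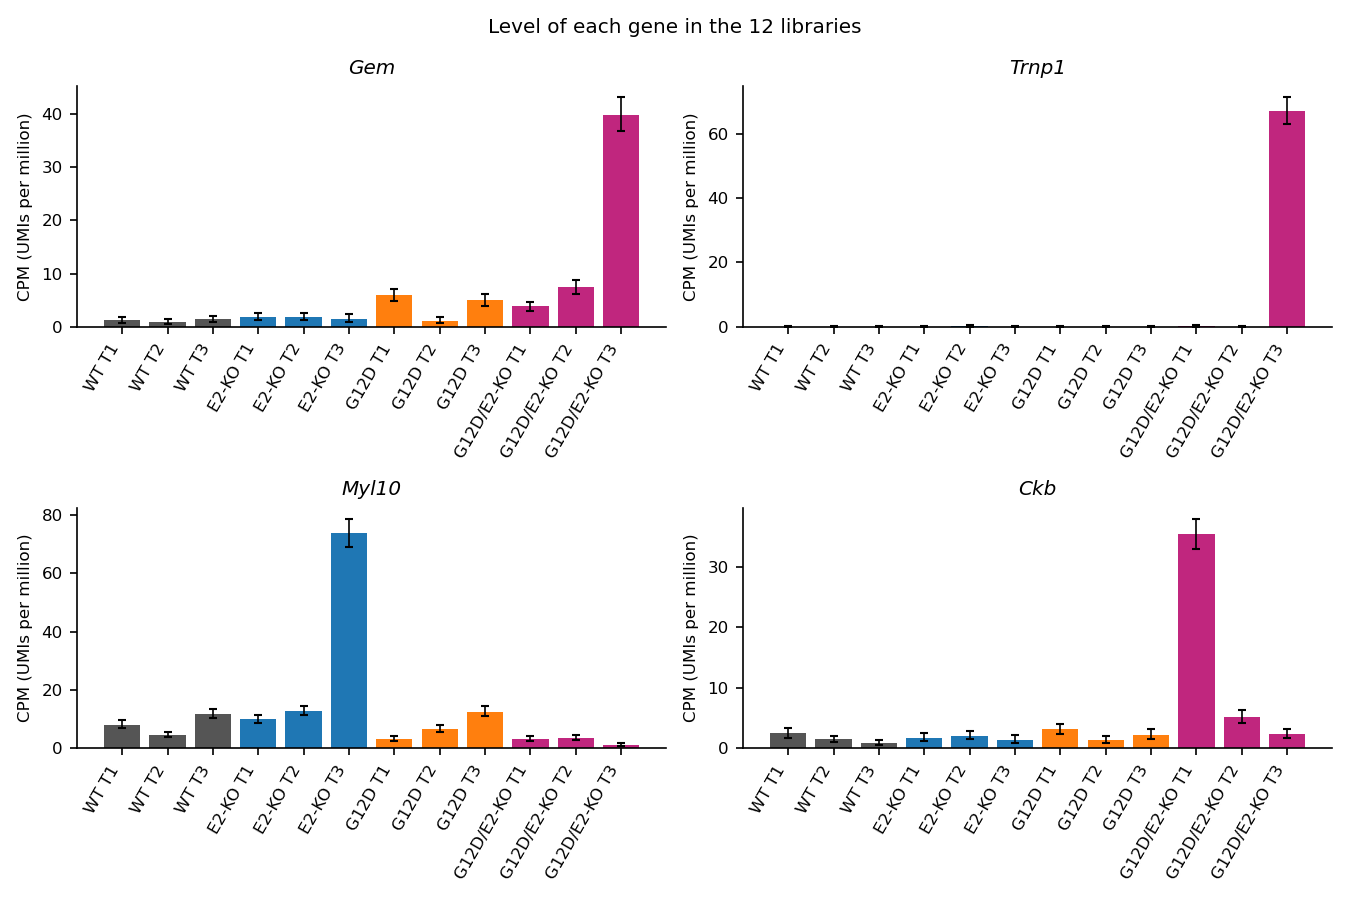
Level of Gem, Trnp1, Myl10 and Ckb in the 12 libraries, in CPM (linear axis from 0). Bars are coloured by genotype and error bars are exact 95% Poisson intervals, which cover counting error only. Gem and Trnp1 rise above the rest in G12D/E2-KO T3 (39.8 and 67.1 CPM), Myl10 in E2-KO T3 (73.8 CPM) and Ckb in G12D/E2-KO T1 (35.4 CPM).

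The cells that held these RNAs were looked at next. Each cell was put in 1 of 12 gates by the list of blood cell markers it scored highest on, such as Hlf and Meis1 for stem cells with multipotent progenitors (HSC/MPP), Klf1 and Car1 for megakaryocyte-erythroid progenitors and early erythroid cells (MEP/early Ery), Pf4 for megakaryocytic cells (Meg), Cd79a for B lymphoid cells and Clec9a for dendritic cells (DC). None of the 4 genes is a marker of a gate. Late granulocytes (late GN), where all 4 genes were scarce, served as the background.

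Gem in G12D/E2-KO T3 lay mostly in stem cell and megakaryocytic gates. Of its UMIs, 55.1% were in HSC/MPP cells, where 122 of 222 cells (55.0%) had a Gem UMI and the level was 355 CPM. A further 29.3% were in Meg cells, where 77 of 265 cells (29.1%) had a UMI at 120 CPM. In the small gate of T and natural killer cells (T/NK), 6 of 16 cells (37.5%) had one at 101 CPM, with 1.14% of the UMIs. In late GN cells 1 of 393 cells had one (0.254%), at a median of 3106 UMIs per cell against 3914 in HSC/MPP cells. In the 11 other libraries pooled, 11.4% of HSC/MPP cells, 2.96% of Meg cells and 7.94% of T/NK cells had a Gem UMI. From T1 to T3, the HSC/MPP cells of WT held 10.8, 4.14 and 11.9 CPM of Gem and those of E2-KO 16.6, 3.97 and 10.8 CPM. Those of G12D held 73.8, 1.55 and 54.9 CPM, and those of the double mutant 39.3 CPM at T1 and 60.4 CPM at T2. Within this gate all libraries with the NRasG12D allele except G12D T2 lay above every WT and E2-KO library, and G12D/E2-KO T3 stood apart from them as well. G12D T2 had 1 Gem UMI in 122 HSC/MPP cells, with an exact interval of 0.0393 to 8.64 CPM. This interval lay below those of all other libraries with the allele, the lowest of which began at 29.5 CPM (G12D/E2-KO T1). The low level of G12D T2 within this gate is thus beyond counting error. Its interval overlapped those of all WT libraries, but not that of E2-KO T1 (8.84 to 28.4 CPM).

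Trnp1 in G12D/E2-KO T3 was spread over the erythroid, stem cell, mast cell and megakaryocytic gates. MEP/early Ery cells held 64.2% of its UMIs, and 199 of the 310 cells in that gate (64.2%) had at least 1, at 232 CPM. A UMI was also found in 65 of 222 HSC/MPP cells (29.3%, 130 CPM), 59 of 181 basophil and mast cells (32.6%, 99.4 CPM) and 49 of 265 Meg cells (18.5%, 60.3 CPM). By contrast, 5 of 136 late erythroid cells, 14 of 838 early granulocytic cells and 4 of 393 late GN cells (1.02%) had a Trnp1 UMI. Median depth was 9126 UMIs per cell in the MEP/early Ery gate and 3106 in late GN. After each cell was thinned to 1400 UMIs, the share with a Trnp1 UMI in the library was 6.63% in place of 15.7%. In the 4674 MEP/early Ery cells of the 11 other libraries, 4 cells had a Trnp1 UMI. Of the 78 cells with both Gem and Trnp1 UMIs, 37 were HSC/MPP and 23 were Meg cells. Over the whole library 29.8% of Gem-positive and 14.1% of Gem-negative cells had a Trnp1 UMI. These shares were 30.3% and 28.0% in the HSC/MPP gate, 29.9% and 13.8% in the Meg gate and 64.3% and 64.2% in the MEP/early Ery gate.

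Myl10 was a gene of B lymphoid and HSC/MPP cells in E2-KO T3 and elsewhere. In E2-KO T3, 162 of 340 B lymphoid cells (47.6%) had a UMI at 451 CPM, and 78 of 146 HSC/MPP cells (53.4%) had one at 429 CPM. These gates held 60.6% and 25.6% of its UMIs, while 7 of 405 late GN cells (1.73%) had a UMI, at median depths of 3118, 3332 and 3086 UMIs per cell in the order B lymphoid, HSC/MPP and late GN. From T1 to T3, B lymphoid cells of WT held 71.5, 56.9 and 238 CPM and those of G12D 122, 128 and 333 CPM, while those of E2-KO held 91.5 CPM at T1 and 108 CPM at T2. Double mutant B lymphoid cells held 112 CPM at T1 and 40.6 CPM at T2, and T3 had 1 such cell. HSC/MPP cells of WT held 27.0, 40.3 and 164 CPM from T1 to T3, those of G12D 18.8, 27.9 and 103 CPM and those of the double mutant 13.8, 17.1 and 6.29 CPM, with 28.1 CPM (T1) and 35.8 CPM (T2) for E2-KO. In both gates the T3 library had the highest CPM of its genotype in WT, E2-KO and G12D. Its CPM interval did not overlap those of T1 and T2, but 1 cell can hold several of the UMIs counted. The 28 B lymphoid UMIs of WT T3 lay in 9 of 23 cells and the 63 of G12D T3 in 17 of 46. By share of B lymphoid cells with a UMI, the T3 interval overlapped those of T1 and T2 in WT and G12D. It ran from 19.71% to 61.46% in WT T3 and from 23.21% to 52.45% in G12D T3. The T3 share interval did not overlap those of T1 and T2 in E2-KO, nor in HSC/MPP cells of these genotypes. The T3 libraries of WT, E2-KO and G12D are the 3 with Xist, so time after pIpC and sex cannot be told apart here. G12D/E2-KO T3, which lacks Xist and also differs in genotype, had the lowest HSC/MPP level. The double mutant was below every library of the other genotypes in this gate at T1 and T2 as well. Its intervals there (8.33 to 21.6 CPM at T1 and 11.35 to 24.7 CPM at T2) overlapped those of several, such as G12D T1 (12.1 to 28.0 CPM). The order at T1 and T2 is thus within counting error for these libraries.

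Ckb was concentrated in the DC gate. In G12D/E2-KO T1, 117 of 131 DC cells (89.3%) had a Ckb UMI, at 815 CPM, and these cells held 82.1% of the UMIs. Promonocytes followed with 36 of 236 cells (15.3%) at 23.3 CPM, while 19 of 1191 late GN cells (1.59%) had a UMI. The median depth was 5825 UMIs per cell in the DC gate and 5428 in late GN. Clec9a and Xcr1, receptors of cross-presenting conventional dendritic cells, had a UMI in 71.0% and 69.5% of the gated cells, whereas Siglech, of plasmacytoid dendritic cells, had one in 3.82% and Cd209a had 0 UMIs. The gate itself was large in this library. It held 4.30% of the cells, against 1.09% (41 cells) in G12D/E2-KO T2 and 0.126% to 0.545% (3 to 15 cells) in the other 10 libraries. Within the gate Ckb stood at 382 CPM in G12D/E2-KO T2, at 416 CPM in G12D T1 and at 0 to 445 CPM in the others, where the intervals are wide. It had 0 UMIs in the DC cells of E2-KO T1 and E2-KO T3 (10 and 13 cells).

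**Figure D2:**
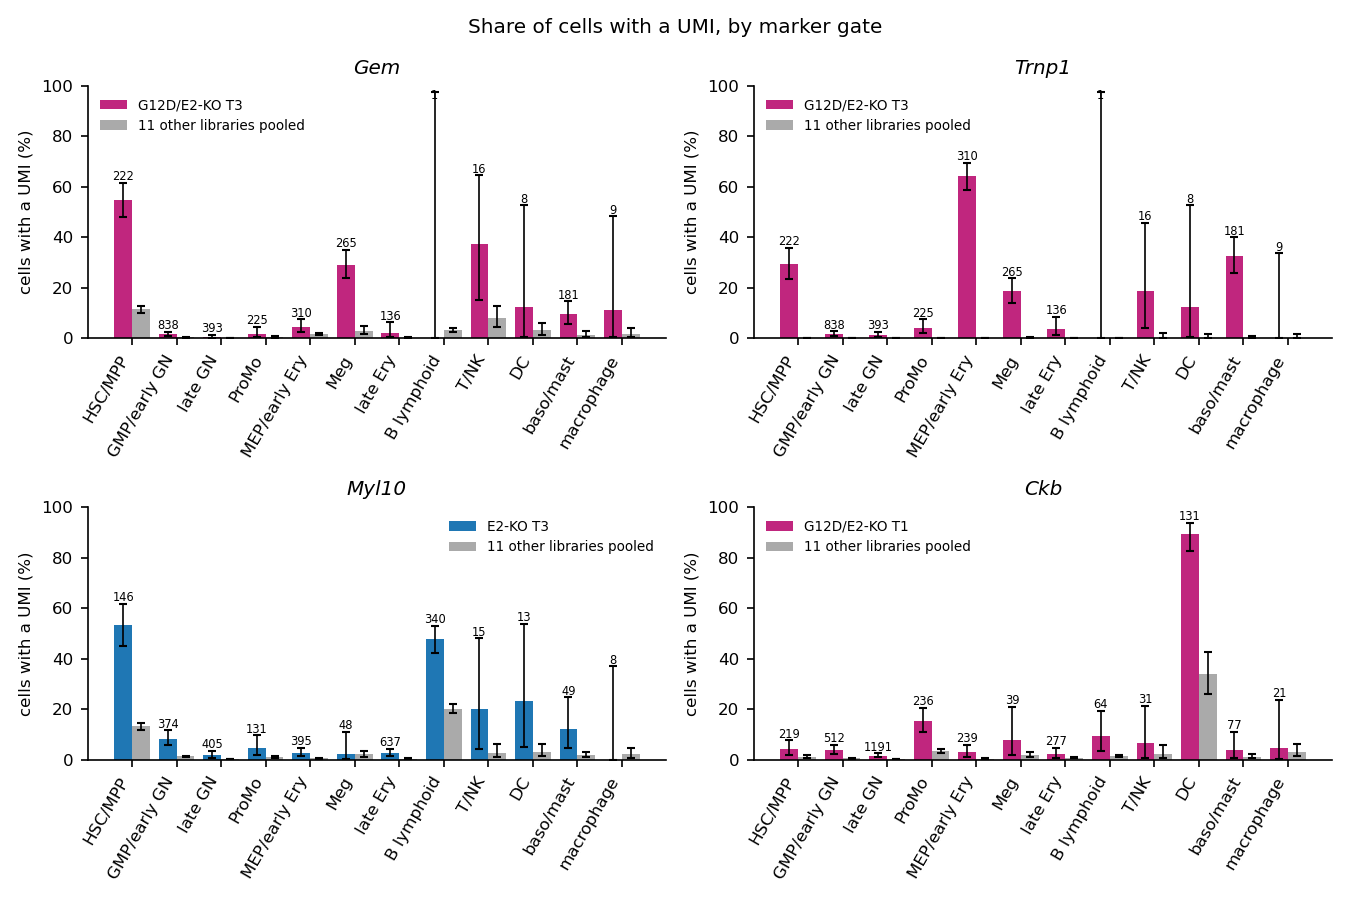
Share of cells with at least 1 UMI of each gene, by marker gate, in the library where the gene was highest (coloured, number of cells above the bar) and in the 11 other libraries pooled (grey). Error bars are exact 95% binomial intervals, which cover counting error only. Gem is held by HSC/MPP (55.0%), T/NK (37.5% of 16 cells) and Meg cells. Trnp1 is held by MEP/early Ery cells (64.2%), Myl10 by HSC/MPP and B lymphoid cells and Ckb by DC cells (89.3%).

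**Figure D3:**
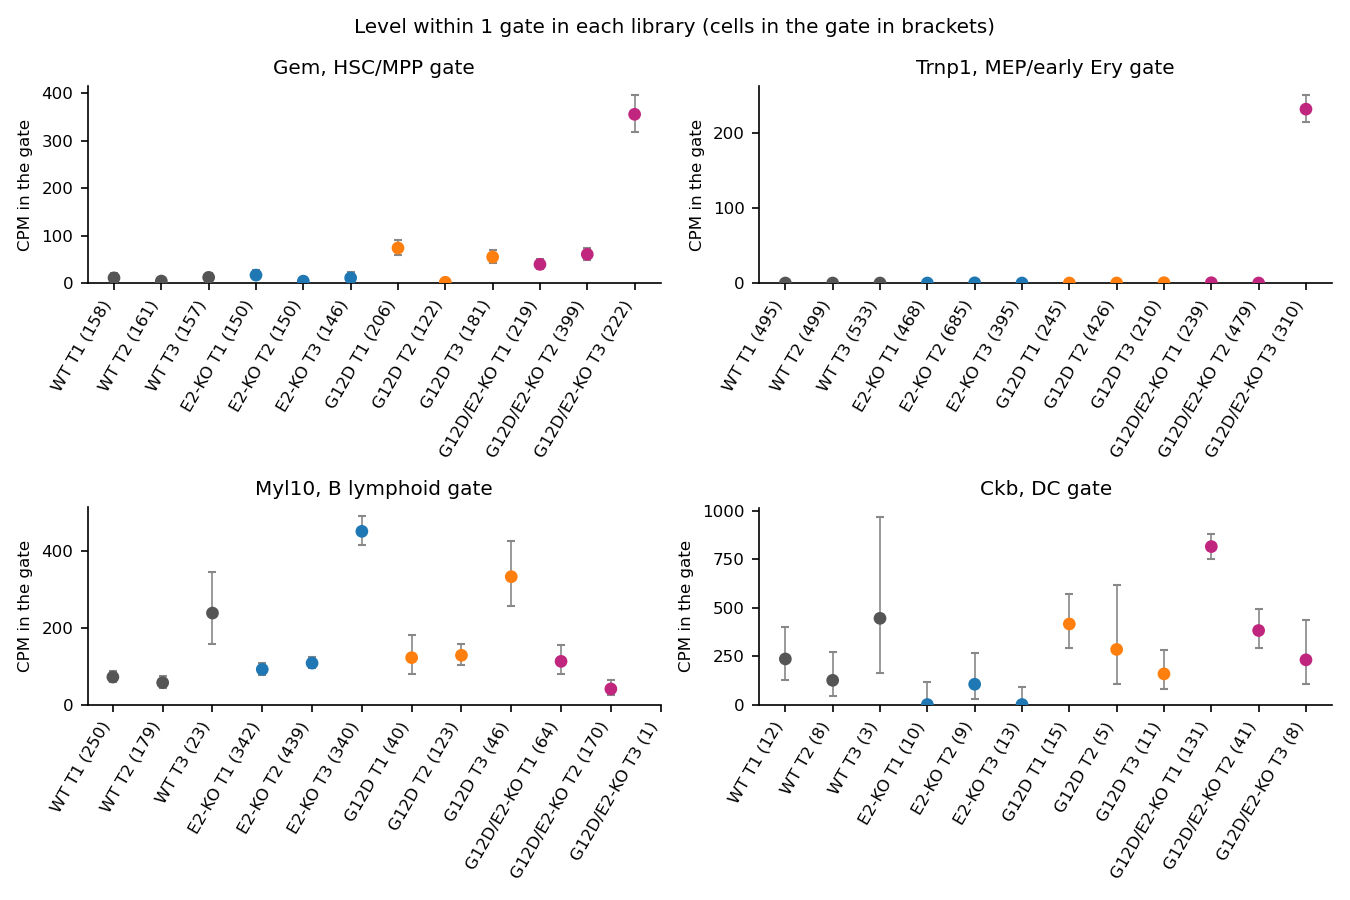
CPM within 1 gate in each library, with exact 95% Poisson intervals and the number of gated cells in brackets. The single B lymphoid cell of G12D/E2-KO T3 is not drawn. Gem in HSC/MPP cells is above 39 CPM in 5 of the 6 libraries with the NRasG12D allele, and Myl10 in B lymphoid cells is highest at T3 in WT (238 CPM), E2-KO (451 CPM) and G12D (333 CPM).

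Whether the same gates held the genes outside the high library was tested. The genes were chosen on library totals, but genes and gates were chosen with earlier results of these data known. The study had also reported Gem mainly in HSC/MPP cells of these libraries. The test is thus not an independent check. In each of the 11 other libraries the level in a gate was compared with all remaining cells as log2((CPM in gate + 5)/(CPM in the rest + 5)), with an exact two-sided sign-flip test over the libraries with at least 20 cells in the gate. Of 39 pairs of gene and gate, 18 passed an adjusted p of 0.05 (Benjamini-Hochberg), 5 with higher and 13 with lower levels in the gate. The 18 pairs had an unadjusted exact p of 0.00684 or less, which 27 of the 39 pairs could reach given the number of libraries with a difference from 0, and 0 of the 10 Trnp1 pairs were among these. Of those 27 pairs 66.7% passed, against 54.2% of the 97224 pairs that could do so over all 10818 genes with at least 50 UMIs in their highest library, 23.8% with higher and 30.3% with lower levels. Passing in some gate was thus common among all genes, the difference between these shares was not tested, and the gates and sizes below are a description of where each was found. Gem was higher in HSC/MPP cells in 11 of 11 libraries, by a mean log2 difference of 1.83 ± 1.22 (SD, exact adjusted p 0.00293), and in B lymphoid cells in 11 of 11, by 0.71 ± 0.40 (exact adjusted p 0.00293). In Meg cells, its second gate by UMIs in G12D/E2-KO T3, it was higher in 8 of 11 libraries by 0.28 ± 0.69, which did not pass (exact adjusted p 0.271). Myl10 was higher in B lymphoid cells in 10 of 10 libraries by 3.78 ± 0.61 (exact adjusted p 0.00448) and in HSC/MPP cells in 11 of 11 by 1.93 ± 1.03 (exact adjusted p 0.00293). Its lower gates, 6 in all, were the granulocytic, promonocyte, erythroid and basophil and mast cell gates.

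Ckb was higher in promonocytes in 10 of 11 libraries by 0.54 ± 0.37 (exact adjusted p 0.00448), and lower in both granulocytic gates and in MEP/early Ery cells. The DC gate had too few cells for this test. When gates of at least 5 cells were allowed, a setting chosen after seeing the data, Ckb was higher in DC cells in 8 of 10 libraries by 3.99 ± 2.39 (exact adjusted p 0.0187). For Trnp1, with 10 UMIs in 11 libraries, the smallest p that the exact test could give was 0.0625, so the test was void and says nothing about its gates. The smallest p that 11 libraries can give is 0.000977. Where nothing says how many mice a library holds, these p-values measure only the spread between libraries.

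How much of each high level went with the make-up of the library was then computed from the gates. With the gate shares of its high library but the within-gate levels of the 11 others, Gem would stand at 3.31 CPM, 1.14 times the pooled level of those libraries. With the within-gate levels of the high library but the gate shares of the others it would stand at 26.7 CPM, or 9.19 times. For Myl10 these folds were 1.77 and 7.40, beside an observed fold of 10.5. For Trnp1 they were 1.85 and 1543, where the first rests on 10 UMIs. For Ckb both parts were of similar size, with 4.69 for gate shares and 4.15 for levels, beside an observed fold of 16.0. These are arithmetic splits with no error attached, and a gate may hold different cells in different libraries.

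**Figure D4:**
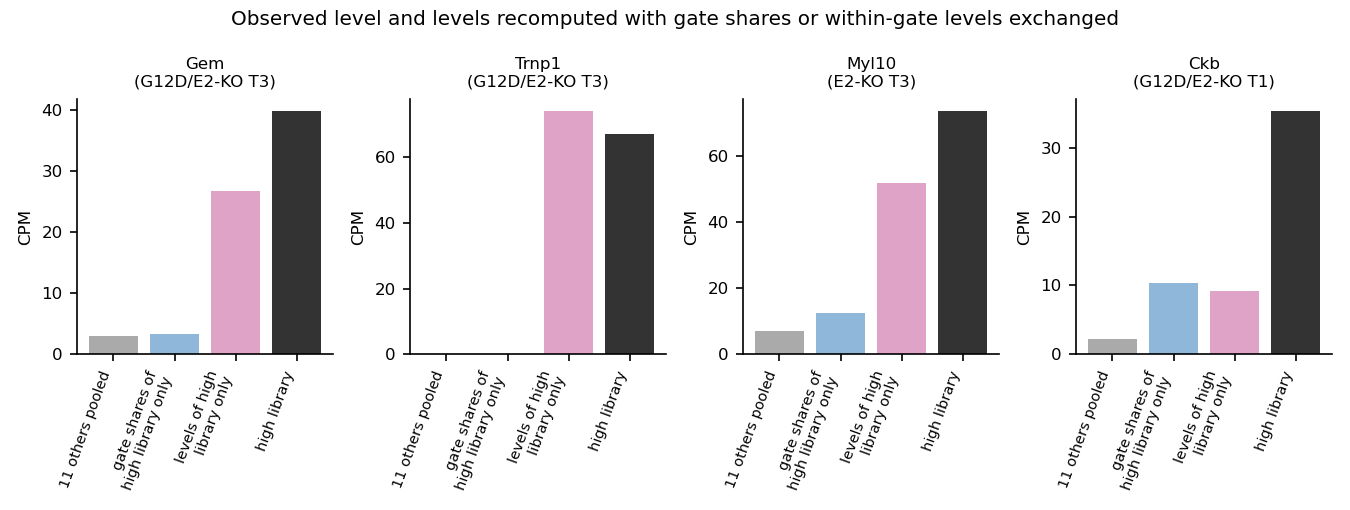
Observed CPM in the high library (black) and in the 11 others pooled (grey), with the CPM recomputed from the gate shares of the high library alone (blue) or from its within-gate levels alone (pink). For Gem, Trnp1 and Myl10 the pink bar is far above the blue one, and for Ckb they are alike (10.3 and 9.16 CPM).

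The 4 genes were next set beside all genes. Of 10818 genes with at least 50 UMIs in their highest library, 12 (0.111%) stood at least 5 times above the next library after 0.5 CPM was added, and the 4 genes are among them by their choice. Trnp1 had the largest ratio of all, 99.4, Ckb ranked 3 with 6.39, Myl10 ranked 9 with 5.55 and Gem ranked 12 with 5.12. The first gene below 5 was Fam178b with 4.96. In G12D/E2-KO T3 the genes most like Gem and Trnp1 were Rcvrn (12.6), which encodes the calcium-binding protein recoverin of photoreceptors, Gm14085 (6.31), Fam178b (4.96) and Klhl4 (4.85). They lay in different gates, since 82.1% of Rcvrn UMIs were in Meg cells, 64.4% of Gm14085 UMIs in early granulocytic cells, 79.8% of Fam178b UMIs in MEP/early Ery cells and 40.9% of Klhl4 UMIs in HSC/MPP cells.

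In G12D/E2-KO T1 the genes most like Ckb were H2-Eb1 (6.13), H2-Aa (5.88), Sept3 (5.84), Cd74 (5.65) and Cyp8b1 (5.16). The H2 genes and Cd74 encode parts of antigen presentation by MHC class II. All 5 had over 90% of their UMIs in the DC gate, for which H2-Aa is a marker, from 90.1% for H2-Eb1 to 95.1% for Cyp8b1. In E2-KO T3 the genes named as most like Myl10 had ratios of at most 3.38. They were Podxl, the embryonic globins Hbb-bh1 and Hbb-y, and Reln, and each had most of its UMIs in erythroid gates rather than in B lymphoid cells.

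**Figure D5:**
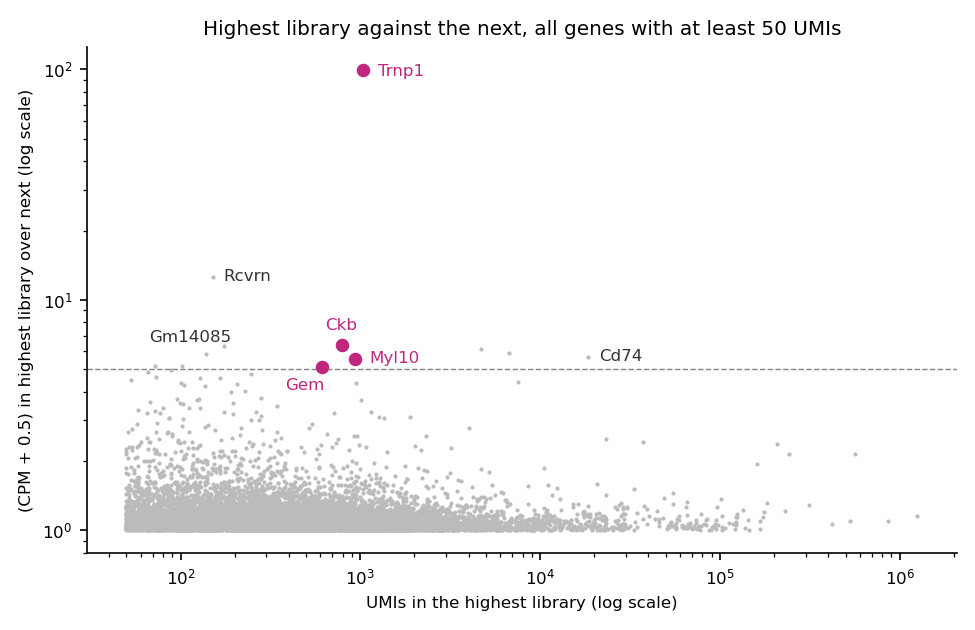
Ratio of the highest library to the next, on CPM plus 0.5, against the UMIs in the highest library for the 10818 genes with at least 50 UMIs there (both axes logarithmic). The dashed line is a ratio of 5. Trnp1 is the highest point at 99.4, followed by Rcvrn at 12.6, and Ckb, Myl10 and Gem lie just above the line.

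Genes found together with the 4 were sought within the high library by comparing cells with a UMI of the gene to cells of the same gates without one. In Gem-positive cells the largest ratios were those of Ly6a (62.8 against 12.9 CPM), which encodes the stem cell antigen Sca-1, S100a6 (228 against 71.1 CPM), Cd244, Pde4d and Ccl5. In Trnp1-positive cells they were those of Slc45a3 (17.9 against 2.51 CPM), Olfm1, Csrp3 (93.3 against 31.1 CPM), Kcng2 and Gnb4. In Myl10-positive cells AA467197 led with 91.2 against 26.4 CPM, followed by Flt3 (55.2 against 22.1 CPM), the cytokine receptor of early lymphoid progenitors, Mta3, Gm30948 and Dennd6a. In Ckb-positive cells Sept3 (74.1 against 5.39 CPM), Pianp, Bcl2a1a, Bcl2a1b and Cd68 led. As 117 of the 131 DC cells had a Ckb UMI, the expected levels for that gate rest on few cells. Over all libraries 22.9% of DC cells lay within 0.25 of a second gate, so cells with and without Ckb may differ in type. Bcl2a1a and Bcl2a1b are near-identical copies, so their split is uncertain. Trnp1-positive cells were deeper than the others of the library (median 6273 against 4949 UMIs), Gem-positive cells shallower (4354 against 5282), Ckb-positive cells deeper (7141 against 6239) and Myl10-positive cells alike (3815 against 3778).

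Neighbouring genes were examined on either side of each gene, none of which overlaps another annotated gene. Next to Gem, Cdh17, the gene of an adhesion protein of the intestine and liver that also marks early B cells and starts 43395 bases after the end of Gem, had 39 UMIs (2.53 CPM) in G12D/E2-KO T3 against 0 to 0.237 CPM in the other libraries, which held 15 UMIs in all. Of the 30 cells with a Cdh17 UMI in that library, 24 also had a Gem UMI. The HSC/MPP gate held 66.7% of the Cdh17 UMIs and the Meg gate 17.9%, and 55.0% and 29.1% of all cells in these gates had a Gem UMI. Whether Cdh17 and Gem shared cells beyond sharing gates was not tested. Rad54b, on the other side of Gem, lay within the range of the other libraries (4.21 CPM against 3.27 to 4.63). Beside Trnp1, Tent5b (listed as Fam46b) had 3 UMIs, Kdf1 had 0, and Nudc lay within the range of the other libraries, while Nr0b2 stood at 2.59 CPM against 0.791 to 2.14 CPM. Beside Myl10, Cux1 stood at 66.9 CPM in E2-KO T3 against 57.7 to 71.0 CPM, and Col26a1 had 1 UMI. Beside Ckb, Mark3 lay within the range of the others, while Trmt61a (6.91 CPM against 8.57 to 19.2) and Bag5 (14.8 against 15.0 to 27.3 CPM) were the lowest of the 12 libraries.

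Relatives and partners of the 4 genes were compared between genotypes, with the 3 time points as replicates. Xist marked the T3 libraries of WT, E2-KO and G12D but no double mutant library. Sex was thus not matched in comparisons with the double mutant, and it was not a term of the fit. Its part in the changes below was not tested. The 5 lists held 83 genes, namely the RGK family with calcium channel beta subunits and other partners, creatine metabolism, myosin light chains, BAF subunits and other partners known for Trnp1, and ETS transcription factors, and 70 had enough counts for the test (edgeR quasi-likelihood test over 13143 genes). In G12D/E2-KO against WT 2 of the 70 rose and 1 fell (4.29%), against 5.71% of all genes tested, and 25 (35.7%) had an unadjusted p under 0.05, against 26.3% of all genes. In E2-KO 0 of 70 passed, against 1.65% of all genes, and 6 had an unadjusted p under 0.05, against 16.2%. In G12D 0 passed, against 0.107%, and 7 had such an unadjusted p, against 11.8%. In the interaction, which is the double mutant change minus the sum of the single mutant changes, 0 passed, against 0.0913%, and 3 had such an unadjusted p, against 3.73%. With DESeq2 11 of the 70 passed in G12D/E2-KO (15.7%), against 10.1% of all genes, and 1 (1.43%) in each of E2-KO, G12D and the interaction, against 3.5%, 1.1% and 0.441%. In G12D/E2-KO the share of the lists was thus below that of all genes by edgeR with adjusted p and above it by edgeR with unadjusted p and by DESeq2, with no test of these differences, and the median log2 change over the 70 genes in G12D/E2-KO was 0.01.

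Of the 3 genes that passed, Cacnb2 and Etv5 were low in level. Cacnb2, which encodes a calcium channel beta subunit, rose from 0.713, 0.381 and 0.768 CPM in WT to 1.48, 2.75 and 2.59 CPM in G12D/E2-KO (log2 change 1.85, SE 0.39, edgeR adjusted p 0.0272). The groups do not overlap, and the call held in 8 of 12 fits with a library left out. Etv5, an ETS factor induced by RAS signalling, rose from 1.54, 2.28 and 2.56 CPM to 3.23, 3.29 and 6.35 CPM (log2 change 0.89, SE 0.23, edgeR adjusted p 0.0447), and the call held in 3 of 12 such fits. It was lost without the time-point block (edgeR adjusted p 0.0699), with the tables as deposited (0.0623) and without the filter on low counts (0.0548). Mylpf, a myosin regulatory light chain of fast skeletal muscle, fell from 19.7, 15.2 and 16.9 CPM to 9.02, 8.89 and 4.92 CPM (log2 change -1.28, SE 0.22, edgeR adjusted p 0.0124), and held in 11 of 12. Without G12D/E2-KO T2 the adjusted p was 0.122 for Cacnb2 and 0.0539 for Mylpf, and without WT T3 it was 0.195 for Etv5. In the interaction all 3 had an edgeR adjusted p of 1.

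Of the 83 list genes, 3 stood at least 2 times above the next library after 0.5 CPM was added, all in G12D/E2-KO T3 with G12D/E2-KO T2 next, and they were named after their values were seen. They are 4.84% of the 62 list genes with at least 50 UMIs in their highest library, against 1.73% of all 10818 such genes, with no test of the difference. G12D/E2-KO T3 was the highest library for 33.8% of all such genes and for 45.2% of those in the lists. The ETS factor Etv4 stood at 3.43 CPM (53 UMIs) against 0.377 CPM in the next library. Ak4, a mitochondrial adenylate kinase, stood at 15.9 against 4.95 CPM, and Myl9, a myosin regulatory light chain of smooth muscle and non-muscle cells, at 6.29 against 2.32 CPM. The nearest relatives of Gem and Ckb were low in every genotype, but so were Gem and Ckb outside their high libraries. Over their 11 other libraries Gem had a mean of 2.9 CPM and Ckb of 2.20 CPM. Rrad, Rem1 and Rem2, the other RGK genes, had genotype means of at most 1.23 CPM, and in WT Rrad stood at 1.14 CPM against 1.17 for Gem. Ckm, muscle creatine kinase, had means between 1.89 and 3.64 CPM. The mitochondrial creatine kinases Ckmt1 and Ckmt2 had means of at most 0.0484 and of 0 CPM.

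Markers of cells other than blood were checked in the high libraries. The 10 neural markers summed to 26.8 CPM in G12D/E2-KO T3, within the 19.9 to 34.3 CPM of the other libraries, with Mbp at 21.4 CPM and Sox2 and Snap25 at 0. In E2-KO T3 they summed to 34.3 CPM, the highest of the 12, with Mbp at 26 CPM and Sox2, Nes and Snap25 at 0. The 10 skeletal muscle markers summed to 14.6 CPM in G12D/E2-KO T3 and 14.8 CPM in E2-KO T3, below most others, and to 53.5 CPM in G12D/E2-KO T1 against 12.7 to 24.6 CPM elsewhere. Of those 53.5 CPM, Tnni2, a troponin of fast muscle, made up 42.2, while the myosins Myh1 and Myh4 had 0 UMIs. Tnni2 was also among the 10 leading genes of the DC gate over all libraries. That ranking is not separate from this library, which gave 131 of the 266 DC cells. The 8 osteoclast markers summed to 73.7 CPM in G12D/E2-KO T1 against 17.9 to 47.1 CPM elsewhere, of which Mmp9 made up 60.7 CPM, and Calcr and Oscar were at 0. The part of these markers in the Ckb level was not tested. Stromal, endothelial and smooth muscle markers in the 3 high libraries lay within the range of the others.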

How the data were processed

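c-Kit+ bone marrow cells were sequenced with 10x Genomics 3' chemistry. The authors processed each sample separately with Cell Ranger on mm10, removed cells with more than 10% mitochondrial transcripts and doublets called by Scrublet, and deposited tables of UMI counts, with cells in rows and genes in columns. No further doublet caller or cell filter was applied. Groups came from the labels. Cells of all library pairs were compared by cosine similarity of log counts over 8000 genes after the 300 most abundant were left out, and cells above 0.9 were taken as the same cell. The shared cells were kept in G12D/E2-KO T1 because they make up nearly all of that table, and were left out of G12D T1. The gate marker Trbc2 is not among the columns.

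Each cell was scaled to 10000 UMIs and log-transformed, marker genes were z-scored over all cells, and the cell joined the gate with the highest mean score if that was at least 0.25. No gate had more markers of another gate than of its own among its 10 leading genes. Cells were gated by these same markers, so this is not an independent check. The MEP/early Ery and DC gates had 1 own marker each among those genes, and the other gates 4 to 6. The share of cells within 0.25 of a second gate was 1.78% (B lymphoid) to 40.3% (macrophage). The edgeR package 4.0.16 (in R 4.3.3 with limma 3.58.1) was run on sums per library (TMM factors, filterByExpr, glmQLFit with robust estimation, genotype and time point as factors, all 12 libraries, 6 residual degrees of freedom), adjusted by Benjamini-Hochberg over all genes tested at 0.05. The fit and the sign-flip test were tested on simulated data. Intervals are exact (Poisson or Clopper-Pearson) at 95% and cover counting error only. Other tools were Python 3.11.15, numpy 2.4.6, scipy 1.17.1 and pandas 2.3.3, with DESeq2 1.42.0 as an alternative.

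The 4 genes, the gates and the lists were chosen with earlier results of these data known. Named genes were the 4 genes, list genes that passed, the 5 genes per member with the largest ratio of the high library to the next, the 5 with the largest ratio in positive cells (at least 50 UMIs each), and the 3 nearest annotated genes (GENCODE, GRCm38) on each side. Some genes that this rule names are not reported here. Rrad, Rem1, Rem2, Ckm, Ckmt1, Ckmt2, Etv4, Ak4 and Myl9 were added after their values were seen. The labels number time points alike in every genotype, so time point was a term of the fit. Alternatives changed the test, scaling, filter, block, cells, gate limits and left-out library.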

Additional observations from a re-analysis of the deposited data

How the results depend on the processing

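Of the 70 family and partner genes, 3 passed in G12D/E2-KO against WT and 0 in each of E2-KO, G12D and the interaction. DESeq2 in place of edgeR called 11, 1, 1 and 1 in that order, where it called 10.1%, 3.5%, 1.1% and 0.441% of all genes. Library totals without TMM factors called 1 in E2-KO, where 278 of all 13143 genes passed. Leaving out 1 library at a time gave 0 to 6 in G12D/E2-KO, 0 to 1 in E2-KO, 0 to 1 in G12D and 0 in the interaction. Over all genes, the same fits called 91 to 1368 in G12D/E2-KO, 66 to 458 in E2-KO, 4 to 136 in G12D and 0 to 34 in the interaction. The list count in G12D/E2-KO was 0 without G12D/E2-KO T2 and 1 without WT T1 or WT T3. The calls over all genes fell as well, from 750 of 13143 in the main fit. They were 104 of 13095 without G12D/E2-KO T2, 112 of 13115 without WT T1 and 91 of 13072 without WT T3. The time points carry the same number in each genotype and formed the replicate block. Without the block 3 genes passed in G12D/E2-KO and 0 in the others, with Myh10 in place of Etv5 (edgeR adjusted p 0.0699). Without the filter on low counts 3 passed, with Etv4 in place of Etv5 (0.0548), and with the tables as deposited 2 passed, without Etv5 (0.0623). Over all genes, G12D/E2-KO had 608 of 12848 calls without the block and 720 of 19993 without the filter. It had 446 of 13156 with the tables as deposited. The 18 called pairs of gene and gate became 18 to 19 when 1 library was left out and 20 when gates of at least 5 cells were allowed, a setting chosen after seeing the data. After thinning each cell to 1400 UMIs, the share of cells with a UMI in the high library was 5.47% for Gem, 6.63% for Trnp1, 7.66% for Myl10 and 3.58% for Ckb. The ratio to the next library fell below 5 for Gem with TMM-scaled totals (4.79), for Myl10 when CPM was averaged over cells (4.97) and for Ckb with the tables as deposited (1.76), and for Trnp1 it ranged from 304.5 to 709.5. The cause of these changes was not tested. With 1 library per genotype and time point, a level found in 1 library has no replicate, and mouse, time and library cannot be told apart. Gates with few cells, and Trnp1 outside its high library, are limited by depth.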
